A study of Mus musculus with 8 samples.

Results

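Bdh1, Acat1 and Slc16a1, 3 of the 45706 genes in the count table, were taken by gene name as genes of ketone body synthesis and export, and their levels were compared between the livers of fasted WT and SA/SA mice. All 3 passed the filter on low counts, which left 14629 genes for testing. Bdh1, Acat1 and Slc16a1 were all well detected in every mouse, and none of them differed between genotypes beyond the spread between mice. The mean level in SA/SA mice was slightly below that in WT mice for each of the 3 genes. Slc16a1 stood apart in its spread, which reached 5.08-fold between the lowest and the highest mouse, against 1.47-fold for Bdh1 and 1.26-fold for Acat1.

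Ketone bodies are made in liver mitochondria from the acetyl-CoA that beta-oxidation of fatty acids yields during fasting. ACAT1, the mitochondrial acetoacetyl-CoA thiolase, joins acetyl-CoA units in a reversible reaction, further mitochondrial steps give acetoacetate, and BDH1 reduces acetoacetate to beta-hydroxybutyrate. The liver releases both ketone bodies to the blood and, for want of OXCT1, hardly uses them itself. SLC16A1 (MCT1) is a proton-coupled carrier of lactate, pyruvate and ketone bodies in the plasma membrane, where it needs the chaperone basigin (Bsg).

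The series comprised 8 RNA-sequencing libraries of liver, 1 per mouse, from 4 WT and 4 SA/SA mice. All mice were female C57BL/6J animals of 4 months that were fasted overnight, so no fed group enters any comparison. SA/SA mice carry PLIN5 S155A on both alleles in the whole body, an alanine in place of a serine of the lipid droplet protein perilipin 5 that was introduced with CRISPR-Cas9, and WT mice carry no edit. The comparison asks whether liver gene expression upon fasting depends on phosphorylation at that serine. The labels name hepatocytes as the cell type, but the source is liver: all 10 hepatocyte markers were detected in every mouse, with a summed level of 102559 to 141852 CPM (the count scaled by the TMM-normalized library size), and markers of Kupffer, endothelial and stellate cells were detected too. In such bulk samples fewer cells of a type and less RNA per cell cannot be told apart.

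Library totals ran from 39709830 estimated counts in SA/SA mouse 3 to 54540612 in WT mouse 1, and Slc16a1, the least abundant of the 3 genes, still had 809 to 5492 counts in a library. Plin5 itself was at 254, 194, 183 and 194 CPM in WT mice 1 to 4 and at 457, 276, 192 and 386 CPM in SA/SA mice 1 to 4. The log2 fold change of Plin5 was 0.67 ± 0.24 (SE), with a 95% interval from 0.13 to 1.21, which lies above 0. Leaving out each mouse in turn gave values from 0.47 to 0.86. By edgeR's quasi-likelihood test the unadjusted p was 0.0193, but Plin5 did not pass after Benjamini-Hochberg adjustment (adjusted p = 0.993). An exact permutation test of the difference in mean log2 CPM gave p = 0.114, and the genotypes overlapped. Since gene counts do not read the edited codon, they do not check the genotype. SA/SA mouse 3 stood apart in the sum of 14 lymphocyte and plasma cell markers, which was 2093 CPM there. It was 27.1 to 57.7 CPM in WT mice and 34.2 to 49.0 CPM in the other 3 SA/SA mice. Such a sum follows its most abundant genes and does not describe each marker. The log2 fold changes of the 14, SA/SA against WT, had a median of 0.84 and a maximum of 4.96. WT mouse 2 held pancreatic acinar markers at a sum of 47.1 CPM, against at most 6.43 CPM in any other mouse, where up to 10 of the 12 markers were at 0. The animal numbers in the labels fell into a low series (under 200) and a high series (over 800), with WT and SA/SA mice 1 and 4 in the low one and mice 2 and 3 in the high one, and nothing in the labels says what the numbers mark.

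Slc16a1 (ENSMUSG00000032902) spans bases 104638668 to 104658462 of chromosome 3 (GRCm38, forward strand), with 1 annotated transcript of 5 exons and 1479 coding bases (GENCODE M21). No 31-base stretch of its 4396 was shared with another annotated gene, while Gm43581 and Gm43585 lie in its introns on the same strand. Its promoter is shown because Slc16a1 was the most variable of the 3 genes between mice. The 250 bases before the start site that RefSeq gives (build GRCm38.p6), chr3:104638414-104638663 on the forward strand, had a GC content of 76.4%. The capitals mark 1 CACGTG, the E-box, which was searched on both strands after the sequence had been read and was found in 6.02% of 32851 mouse promoters of that length.
Slc16a1: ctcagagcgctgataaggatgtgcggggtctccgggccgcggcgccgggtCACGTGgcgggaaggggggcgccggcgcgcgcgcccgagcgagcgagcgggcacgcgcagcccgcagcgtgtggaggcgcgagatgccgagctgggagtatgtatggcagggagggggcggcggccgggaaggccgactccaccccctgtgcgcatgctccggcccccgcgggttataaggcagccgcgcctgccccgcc

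Slc16a1 was at 62.2, 44.9, 84.3 and 108 CPM in WT mice 1 to 4. It was at 94.0, 41.3, 21.4 and 108 CPM in SA/SA mice 1 to 4. The highest mouse of each genotype was thus at the same level, the lowest mouse of all was SA/SA mouse 3, and the SA/SA range enclosed nearly the whole WT range. Mean levels were 75.0 ± 27.5 CPM (WT) and 66.2 ± 41.5 CPM (SA/SA; SD, n = 4 each). The log2 fold change was -0.18 ± 0.46 (SE), with a 95% interval from -1.19 to 0.84, and it did not pass the test (adjusted p = 0.996, edgeR's quasi-likelihood test; p = 0.571, exact permutation test, two-sided, of the difference in mean log2 CPM). That difference in means was -0.38, and limma-voom gave a log2 fold change of -0.37. With 4 mice a group, 0.0286 is the smallest p such an exact test can give. As a fold, that interval ran from 0.437 to 1.79. The sign of the estimate rested on single mice. The log2 fold change was 0.12 without SA/SA mouse 3, the mouse with the high lymphocyte and plasma cell marker sum. It was 0.054 without WT mouse 4, -0.0026 without SA/SA mouse 2 and -0.52 without SA/SA mouse 4. The part of lymphocyte and plasma cell RNA in the low Slc16a1 level of SA/SA mouse 3 was not tested.

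The SD of Slc16a1 within genotypes, 0.86 on the log2 scale, was at the 98.9th percentile of all tested genes with a mean of at least 10 CPM. The corresponding SDs were 0.20 for Bdh1, at the 56.8th percentile, and 0.12 for Acat1, at percentile 19.1. Slc16a1 thus varied between mice of 1 genotype more than nearly all genes at a measurable level, and Acat1 less than most.

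**Figure D1:**
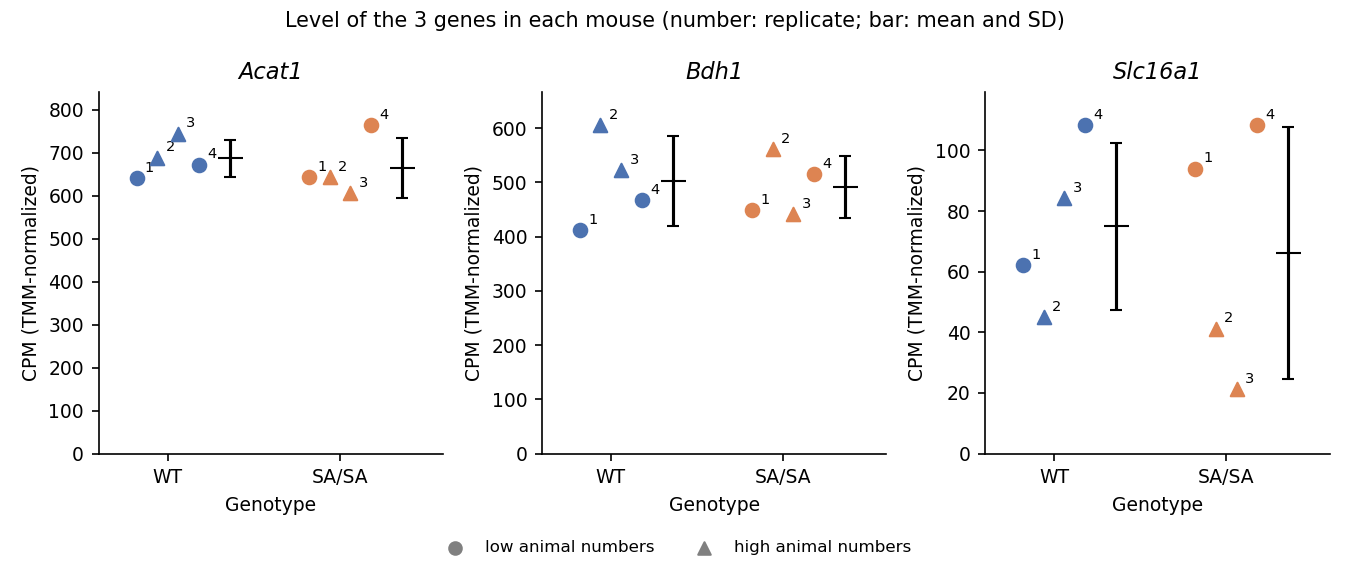
Level of Acat1, Bdh1 and Slc16a1 in each mouse, in CPM (y axis, linear, from 0) by genotype (x axis), with a numbered point per mouse (circles for the low animal series, triangles for the high one) and a bar for the mean ± SD. WT and SA/SA mice overlap for every gene; Slc16a1 spans 21.4 to 108 CPM, while Acat1 stays between 606 and 764 CPM.

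Bdh1 (ENSMUSG00000046598) lies on chromosome 16 from 31422280 to 31458901 on the forward strand of GRCm38, with 7 annotated transcripts, 4 of them protein coding. The antisense gene Gm15743 overlaps it, and 12.3% of the 31-base stretches of Bdh1 transcripts, 481 of 3901, also occurred in other annotated genes, 473 of them in Gm15743. The library kit marks strand but the use of strand in the counting is not given, so Bdh1 counts may hold reads of that partner. RefSeq gives 2 promoters, both shown because Bdh1 can start at either: chr16:31422047-31422296 and chr16:31428503-31428752, on the forward strand of GRCm38.p6, with a GC content of 49.6% and 60.8%.
Bdh1 first start: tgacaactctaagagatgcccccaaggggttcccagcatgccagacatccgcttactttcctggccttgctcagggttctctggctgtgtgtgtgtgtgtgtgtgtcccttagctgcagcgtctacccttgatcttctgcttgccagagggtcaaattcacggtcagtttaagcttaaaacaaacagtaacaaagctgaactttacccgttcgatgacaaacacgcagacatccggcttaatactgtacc
Bdh1 second start: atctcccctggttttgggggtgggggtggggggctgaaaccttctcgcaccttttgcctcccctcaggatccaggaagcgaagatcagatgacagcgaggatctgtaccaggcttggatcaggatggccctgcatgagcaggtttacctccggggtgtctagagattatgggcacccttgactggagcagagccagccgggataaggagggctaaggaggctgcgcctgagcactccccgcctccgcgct

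Acat1 (ENSMUSG00000032047) lies on chromosome 9 from 53580522 to 53610382 on the reverse strand, with 1 protein-coding transcript of 12 exons and 1272 coding bases among its 3 transcripts. No other gene overlaps it, and none of its 3725 31-base stretches occurred in another gene. In the Slc16a1 and Bdh1 promoters, searches on both strands found no exact direct repeat of AGGTCA with a 1-base spacer (DR1). DR1 is the element read by PPARa with its partner RXR, and the exact letters were in 0.0335% of the 32851 promoters. A match that rare was unlikely from the start, so the search cannot say whether a site with other letters is present. AGGTCA alone, part of DR1, was in 14.02% of all promoters and in none of the Slc16a1 and Bdh1 promoters. The same held for TGACGTCA, the cAMP response element (1.55%), and its part TGACG (17.8%). No promoter of Acat1 was searched. The CACGTG of Slc16a1 was in neither Bdh1 promoter.

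Bdh1 was at 413, 606, 523 and 467 CPM in WT mice 1 to 4 and at 449, 561, 442 and 515 CPM in SA/SA mice 1 to 4. Both the lowest and the highest mouse were WT, and all SA/SA values lay between them. Mean levels were 502 ± 82.6 CPM (WT) and 492 ± 56.6 CPM (SA/SA; SD, n = 4 each). The log2 fold change of Bdh1 was -0.031 ± 0.14 (SE) and did not pass the test (adjusted p = 0.996, edgeR's quasi-likelihood test; p = 0.886, exact permutation test). Its 95% interval, from -0.34 to 0.28, holds SA/SA levels of 0.790 to 1.21 times WT. The sign again rested on single mice, with 0.073 without WT mouse 2, the mouse with acinar markers, 0.019 without SA/SA mouse 3, 0.010 without SA/SA mouse 1 and 0.12 without both WT mouse 2 and SA/SA mouse 3.

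Acat1 was at 641, 688, 744 and 672 CPM in WT mice and at 643, 644, 606 and 764 CPM in SA/SA mice. The SA/SA mice held both ends of the range, with mouse 3 the lowest and mouse 4 the highest of all 8. The means were 686 ± 43.0 CPM and 664 ± 69.0 CPM (SD, n = 4 each). The log2 fold change of Acat1 was -0.047 ± 0.11 (SE), with a 95% interval from -0.28 to 0.19, and did not pass the test (adjusted p = 0.996, edgeR's quasi-likelihood test; p = 0.600, exact permutation test). The interval holds SA/SA levels of 0.821 to 1.14 times WT, the narrowest of the 3 genes. Leaving out each mouse in turn gave values from -0.12 to -0.0038.

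Bdh2, a second 3-hydroxybutyrate dehydrogenase that lies in the cytosol, was low beside Bdh1, at 4.48 ± 0.615 CPM in WT mice and 5.13 ± 1.67 CPM in SA/SA mice. Its log2 fold change was 0.19 ± 0.26 (SE) and did not pass the test, and it was 0.40 without SA/SA mouse 1 and 0.052 without SA/SA mouse 3.

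Of 47 pathway genes, the 3 and 44 listed with them from ketogenic enzymes to transporters, fatty acid oxidation and regulators, 43 were tested and 0 passed at an adjusted p under 0.05. Over all tested genes edgeR also called 0 (0%), with 497 at an unadjusted p under 0.05 (3.40%), while DESeq2 called 6 (0.0411%) and limma-voom 0. Among the 43 genes 0 were at an unadjusted p under 0.05, and 0 had groups that did not overlap, against 2.30% of all tested genes. The estimates were above 0 for 29 of the 43 and below 0 for 14, and without the 3 for 29 of 40 and 11 of 40. Over all 14629 tested genes 7138 were above 0 and 7491 below 0. The median log2 fold change of the 43 was 0.030, beside a median of -0.0050 over all tested genes. The 7 tested monocarboxylate transporters, 2 higher and 5 lower, had a median of -0.23.

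Genes that use ketone bodies or serve as cytosolic counterparts differed widely in level. Oxct1, the enzyme that commits acetoacetate to use as fuel, was at 2.86 CPM in WT mice and 2.48 CPM in SA/SA mice. Aacs, which activates acetoacetate for lipid synthesis in the cytosol, varied most: 13.6, 59.6, 10.7 and 6.18 CPM in WT mice and 21.6, 30.3, 36.3 and 6.70 CPM in SA/SA mice. WT mouse 2 was far above the other WT mice, and the log2 fold change of Aacs, 0.073 ± 0.69 (SE), became 1.22 without that mouse. Hmgcs1, the cytosolic HMG-CoA synthase of the cholesterol pathway, had a log2 fold change of 0.46 ± 0.31, with 86.6 CPM in WT mice and 119 CPM in SA/SA mice, and this value was 0.091 without SA/SA mouse 2, the highest at 201 CPM. Acat2 and Acat3, cytosolic thiolases, had log2 fold changes of 0.17 ± 0.20 and 0.028 ± 0.16, the latter -0.025 with library size alone, and the former between 0.027, without SA/SA mouse 2, and 0.31, without WT mouse 2. Acat3 was the most abundant of this list, at 244 CPM in WT mice and 248 CPM in SA/SA mice, and Hmgcll1 was not tested, with at most 10 counts in a library.

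In the list of fatty acid oxidation, which supplies the acetyl-CoA, 13 of 13 genes were tested, 10 higher and 3 lower in SA/SA mice, and their median log2 fold change was 0.036. Cpt2, the inner-membrane carnitine palmitoyltransferase, had a log2 fold change of 0.063 ± 0.13 (SE), and Etfb, a subunit of the electron carrier that takes electrons from the acyl-CoA dehydrogenases, had 0.17 ± 0.12. Of the 10 regulators, 8 were higher and 2 lower, with a median of 0.068. Fgf21, a fasting hormone of the liver, had a log2 fold change of 0.066 ± 0.28, and Foxa2, a transcription factor of hepatic fatty acid oxidation and ketogenesis, had 0.073 ± 0.17. None of these passed the test, and over all 14629 tested genes 7138 were higher and 7491 lower.

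**Figure D2:**
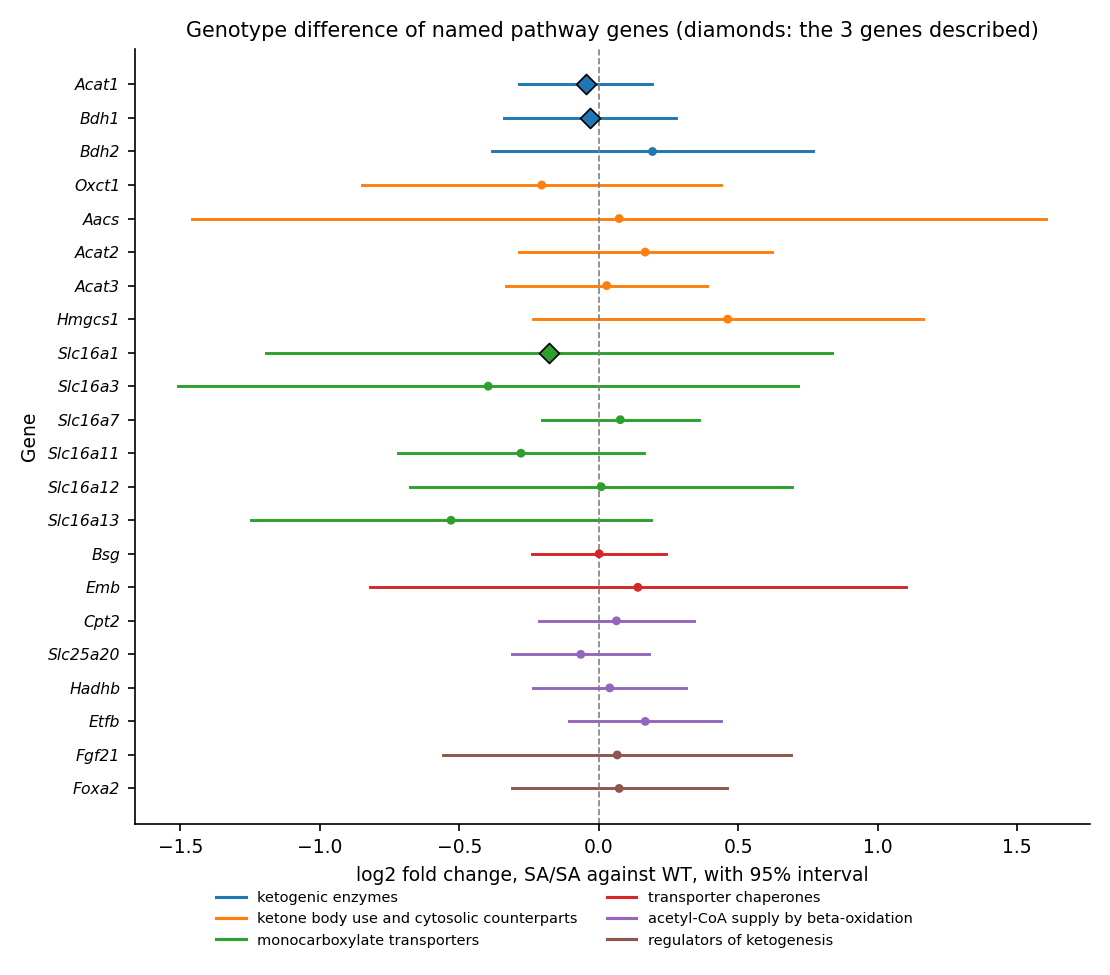
Log2 fold change of SA/SA against WT mice (x axis) for the tested pathway genes named in the text (y axis, grouped by list), with 95% intervals from edgeR's fit. The intervals of all genes plotted cross 0, and those of Slc16a1 and Aacs are wide beside those of Acat1 and Bdh1.

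Among the transporters, Slc16a1 had the highest mean level per kilobase of exon, and the highest such level in 5 of the 8 mice. It was at 16.9 ± 6.22 CPM per kilobase in WT mice and 15.0 ± 9.38 in SA/SA mice. Next came Slc16a11, a monocarboxylate carrier of the liver, at 11.4 ± 3.45 and 9.41 ± 0.960, which did not differ from Slc16a1 beyond these SDs. Slc16a12 followed, at 33.4 and 33.6 CPM before division by length. Then came Slc16a7 (MCT2), a carrier of the same substrates as MCT1, at 5.90 and 6.22 CPM per kilobase. Before division by its exon length of 11.8 kilobases, Slc16a7 was at 69.8 CPM in WT mice and 73.6 CPM in SA/SA mice. Slc16a1, with 4.43 kilobases, was at 75.0 and 66.2 CPM, so the gap between these genes rested on the lengths used. Slc16a3 (MCT4), the carrier of glycolytic cells, was at 0.0976 and 0.0742 CPM per kilobase, Slc16a8 had 0 counts in every mouse, and Slc5a8 had at most 4. Slc16a1 made up 36.2, 21.9, 38.2 and 49.4% of the summed level of the 9 transporters per kilobase in WT mice and 46.5, 23.6, 14.8 and 50.3% in SA/SA mice. Per kilobase, Slc16a1 was below both Slc16a11 and Slc16a12 in WT mouse 2, SA/SA mouse 2 and SA/SA mouse 3. In SA/SA mouse 3 its level of 4.83 CPM per kilobase was below that of Slc16a7 as well, 6.61. The chaperone Bsg was even and high, at 429 ± 43.8 CPM (WT) and 429 ± 31.1 CPM (SA/SA; SD, n = 4 each), and Emb, the other chaperone of these carriers, was near 0 at 0.480 and 0.531 CPM.

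Per kilobase Acat1 was above Bdh1, and Bdh1 far above Bdh2. Acat1 was at 183 ± 11.4 CPM per kilobase in WT mice and 177 ± 18.4 in SA/SA mice. Bdh1 was at 129 ± 21.2 and 126 ± 14.6 CPM per kilobase, so the gap to Acat1 was larger than these SDs in both genotypes. Bdh2 was at 1.05 ± 0.145 CPM per kilobase in WT mice. Bdh1 made up 99.2% ± 0.0579 of the summed level of Bdh1 and Bdh2 in WT mice and 99.1% ± 0.323 in SA/SA mice. Acat1 made up 61.5% of the summed level of Acat1, Acat2 and Acat3 in WT mice, with a range of 60.8 to 63.0%, and 60.2% in SA/SA mice, with a range of 53.2 to 66.0%. Exon lengths were those of all annotated transcripts together, and which transcripts are used was not measured, while both Acat1 and Bdh1 have an annotated transcript with a retained intron.

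**Figure D3:**
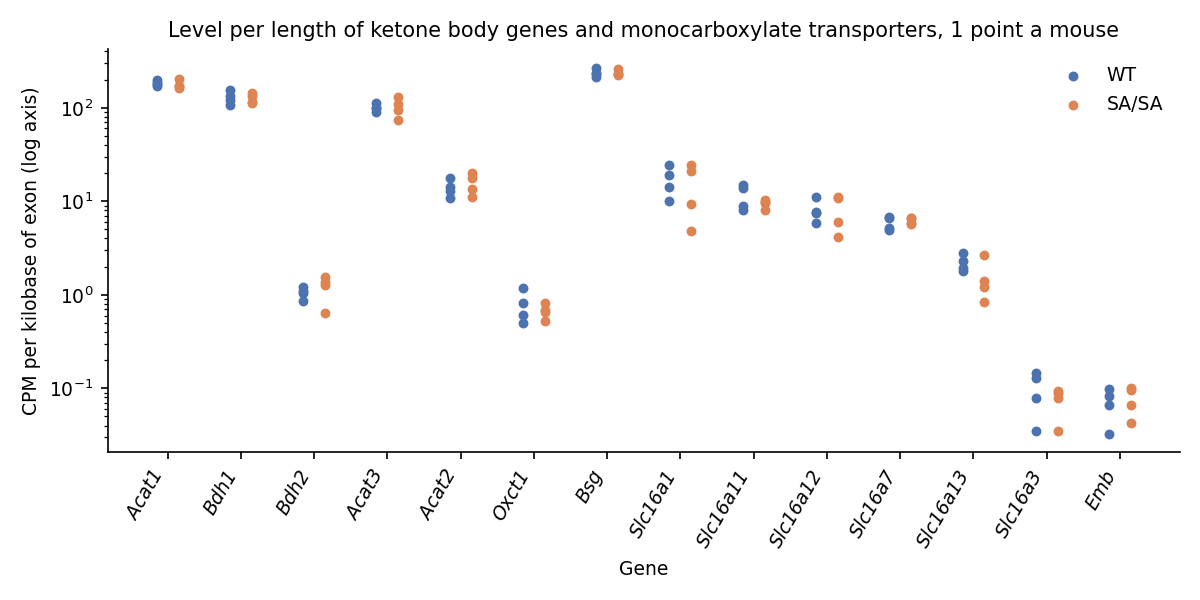
Level of Acat1, Bdh1, transporters and related genes in CPM per kilobase of exon, on a log axis, with 1 point per mouse coloured by genotype. Acat1 and Bdh1 have WT means of 183 and 129, and Slc16a1 has the highest mean among the transporters.

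The genotype difference of all 3 genes had opposite signs in the animal series. In the low series the difference in mean log2 CPM, SA/SA minus WT with 2 mice each, was 0.13 for Bdh1, 0.095 for Acat1 and 0.30 for Slc16a1. In the high series it was -0.18, -0.20 and -1.05. Over all 14629 tested genes this difference was above 0 for 7226 in the low series and for 7151 in the high one. The share of all genes with opposite signs was not counted. Of the 3 genes, 0 had every SA/SA mouse above the WT mice in one series and below them in the other, against 9.49% of all tested genes with such opposite differences. The difference between the series did not pass the test of the interaction for any of the 3: it was -1.29 ± 0.55 (SE) for Slc16a1 (adjusted p = 0.438), -0.30 ± 0.23 for Bdh1 (adjusted p = 0.665) and -0.30 ± 0.19 for Acat1 (adjusted p = 0.596), all by edgeR's quasi-likelihood test over 14629 genes. DESeq2 gave an adjusted p of 0.172 and limma-voom one of 0.439 for Slc16a1. Slc16a1 ran from 62.2 to 108 CPM in the 4 mice of the low series and from 21.4 to 84.3 CPM in the 4 of the high series, so the series overlapped, as they did for Bdh1 and Acat1 (0 of 3 genes without overlap, against 6.85% of all tested genes). With the series as a block the log2 fold change of Slc16a1 was -0.40 ± 0.35 (SE, adjusted p = 0.945).

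Of the 43 pathway genes, 6 had an interaction with the series at an unadjusted p under 0.05, and all 6 were more negative in the high series: Slc16a1, Slc16a11, Slc16a13, Cpt2, Fgf21 and Foxa2. By DESeq2 there were 7, of which 6 were more negative and 1 was more positive in the high series, and of the 1622 genes at that p over all tested genes by edgeR, 741 were more negative there. Over all tested genes 11.1% were at an unadjusted p under 0.05, and edgeR called 0 of 14629 (0%), against 285 (1.95%) by DESeq2 and 1 by limma-voom. Fgf21 was the 1 pathway gene that DESeq2 called (adjusted p = 0.0212), while its adjusted p by edgeR was 0.257. Fgf21 was at 32.1, 33.9, 23.8 and 30.5 CPM in WT mice and at 44.4, 20.0, 19.0 and 42.4 CPM in SA/SA mice, with the low-series SA/SA mice above every WT mouse and the high-series SA/SA mice below. Slc16a13, a neighbour of Slc16a11 on chromosome 11, was at 5.02, 5.98, 7.20 and 4.68 CPM in WT mice and at 3.65, 3.12, 2.16 and 6.86 CPM in SA/SA mice. Its smallest value was that of SA/SA mouse 3, as for Slc16a1, Acat1, Slc16a11 and Fgf21, but not for Bdh1 or Cpt2.

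Of the cell type markers, edgeR called 0 for the interaction in any list, but the medians of some lists had opposite signs in the series. The genotype difference of the 10 Kupffer cell and macrophage markers had a low-series median of -0.45 (1 of 10 above 0) and a high-series median of 0.85 (10 of 10 above 0), and 7 of the 10 had an interaction at an unadjusted p under 0.05. The summed level of these markers was 263 to 522 CPM in WT mice and 269 to 586 CPM in SA/SA mice, and none was at 0 in any mouse. For the 10 hepatocyte markers these medians were -0.15 and 0.43, with 5 of 10 at an unadjusted p under 0.05. That count was 4 of 14 for lymphocyte and plasma cell markers and 1 of 10 each for endothelial and stellate cell markers. It was 0 of 6 tested each for cholangiocyte and red blood cell markers, and 0 of 2 tested each for acinar and adipocyte markers. Over all tested genes the share was 11.1%. The part of the cell makeup in the series difference of Slc16a1 was not tested, and whatever else the series differ in cannot be told apart from the animal numbers.

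**Figure D4:**
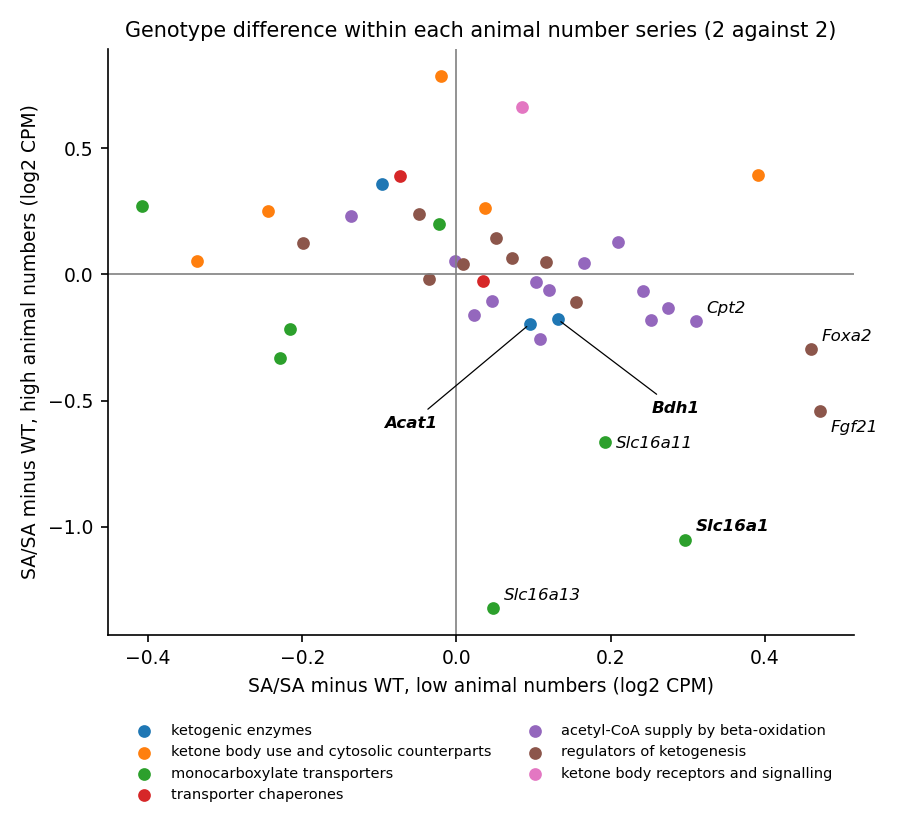
Log2 CPM difference, SA/SA minus WT, in the low (x axis) and high (y axis) animal series, with a point per pathway gene, coloured by list, and 2 mice per genotype in each series. The x and y axes have different scales. Bdh1, Acat1 and Slc16a1 lie above 0 in the low series and below 0 in the high series, with Slc16a1 at 0.30 and -1.05.

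Across the 8 mice the levels of Acat1 and Slc16a1 correlated with r = 0.64 (p = 0.0888, adjusted p = 0.266, exact permutation test) and rho = 0.52 (p = 0.197, adjusted p = 0.295), and r was 0.55 without the 2 mice farthest from the median of Acat1. For Bdh1 and Acat1, r was 0.48 (p = 0.232, adjusted p = 0.348, exact permutation test), rho was 0.69 (p = 0.0694, adjusted p = 0.208) and r was 0.50 without 2 mice. For Bdh1 and Slc16a1, r was -0.056 (p = 0.898, adjusted p = 0.898, exact permutation test), rho was -0.071 (p = 0.882, adjusted p = 0.882) and r was 0.12 without 2 mice. None of the 3 relations passed the test, and a series holds only 4 mice, too few for a value within it.

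The genes most like each of the 3 were sought among 7256 genes at a mean of at least 10 CPM, by the root mean square difference in log2 CPM over the 8 mice after centring each gene on its mean. For Slc16a1, whose own root mean square deviation was 0.77, these were Nedd4l (0.20), Lrfn3 (0.21) and Dtx4 (0.22). For Bdh1, with 0.18 of its own, they included Commd1 (0.057) and Dhrs7b (0.064). For Acat1, with 0.11 of its own, they included Ssna1 (0.033) and Cbx3 (0.034). The difference of each of the 3 nearest genes from Slc16a1 was thus larger than the deviation of Bdh1 from its own mean.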

How the data were processed

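Poly(A)-selected, stranded RNA libraries of liver from 8 mice were sequenced from both ends (100 bp). Salmon's estimated counts for each gene were deposited by the authors, scaled for average transcript length and not normalized for library size. The submitters' processing notes name STAR, SAMtools, bcl2fastq, MultiQC, DESeq2 and GRCm38. The salmon version, the annotation release and the use of strand are not given in the sources used here. Scaling by length can change a count where isoform use differs.

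Counts were rounded, genes kept with filterByExpr (14629 of 45706), normalized by TMM and tested with edgeR 4.0.16 (quasi-likelihood, genotype only, 4 against 4 mice, Benjamini-Hochberg over all genes, threshold 0.05) in R 4.3.3. CPM use TMM library sizes, and log2 CPM use a prior count of 2. Single genes were also tested by a two-sided exact permutation test over 70 splits (Python 3.11.15, scipy 1.17.1). Columns were matched to mice by animal number. The replicate numbers were not taken to pair the mice. The most similar library pair, SA/SA mice 2 and 3, had a per-gene chi-square of 40.2, so none were copies. Coordinates are GENCODE M21 (GRCm38). Tests were checked on simulated counts. There edgeR called 7 of 50 genes changed 1.5-fold, 32 of 50 changed 2-fold and 48 of 50 changed 4-fold. It also called 2 of 14429 unchanged genes, so the test would miss most changes of 1.5-fold. Alternatives were DESeq2 1.42.0, limma-voom (limma 3.58.1), other scalings and filters, a robust fit, blocks for replicate number and animal series, and leaving out each mouse. The 3 genes, the lists and the rule for named genes (the 3, Plin5, the pathway lists and the 3 genes most like each) were chosen with earlier results of these data known. Some genes of the lists, of the genes most like the 3 and of the interaction test are not reported here.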

Additional observations from a re-analysis of the deposited data

Results flagged for a closer look

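Of 38 groups of 4 mice searched for a value far from the other 3, 2 had one, and chance gives about 1 in 20. Plin5 in WT mouse 1 was at 254 CPM, above 183 to 194 CPM in the other WT mice. Aacs in WT mouse 2 was at 59.6 CPM, above 6.18 to 13.6 CPM in the other WT mice.

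For 5 of the 43 tested pathway genes every SA/SA mouse moved one way from the WT mice in the low animal series and the opposite way in the high series, and 9.49% of all tested genes did so too. The difference in mean log2 CPM between the series (high minus low) was -0.86 for Slc16a11, -0.50 for Cpt2, -1.01 for Fgf21, -0.36 for Slc25a20, the carnitine-acylcarnitine carrier of mitochondria, and -0.44 for Hadhb, the thiolase subunit of the mitochondrial trifunctional protein. By edgeR's test of the interaction the adjusted p was 0.273, 0.408, 0.257, 0.471 and 0.479, so none passed, and DESeq2 called Fgf21 alone of the 5 (adjusted p = 0.0212). Slc16a1 was not among them.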

How the results depend on the processing

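The fold changes of Bdh1, Acat1 and Slc16a1 did not pass the test under any alternative, with adjusted p values of at least 0.952, 0.953 and 0.899. Without single mice the log2 fold change ran from -0.11 to 0.073 for Bdh1, from -0.12 to -0.0038 for Acat1 and from -0.52 to 0.12 for Slc16a1. For named genes that changed sign it ran from -0.24 to 1.22 for Aacs, -0.10 to 0.15 for Acat3, -0.046 to 0.070 for Bsg, -0.0046 to 0.14 for Cpt2, -0.15 to 0.25 for Fgf21, -0.053 to 0.19 for Foxa2, -0.12 to 0.0065 for Slc25a20 and -0.047 to 0.11 for Hadhb. Without both WT mouse 2 and SA/SA mouse 3, chosen after seeing the data, it was 0.12 for Bdh1 and -0.058 for Acat3. With library size alone it was -0.025 for Acat3 and -0.039 for Bsg, and with limma-voom -0.018 for Fgf21. With the replicate block it was -0.34 for Slc16a1 and -0.030 for Fgf21, and with the series as a block -0.042 for Fgf21. The replicate block called 0 genes, as did the fit without it, and mice with the same replicate number correlated by 0.056, 0.17, -0.11 and 0.13, so the numbers were not taken to pair them. DESeq2 called 6 genes for genotype and 285 for the interaction, and limma-voom 1 for the interaction, against 0 by edgeR. The cause of these changes was not tested. Of all the recomputed values, 389 kept direction and call, 33 changed sign and 3 counts moved. With 4 mice a group, Slc16a1 allows a 95% interval from 0.437 to 1.79 times WT, at a depth of 809 to 5492 counts per library.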
